A study of Mus musculus with 28 samples.

Results

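The regions described here were narrow peaks of SSRP1 that carried no peak of the other FACT subunit and lay away from gene starts. Of the 10114 SSRP1 peaks called in mouse embryonic stem cells (mESCs), those shorter than 1000 bp, without any overlap with a SUPT16 peak and more than 1000 bp from the start of every gene in the chromatin RNA count table were taken. These rules kept 5426 peaks (53.6%, 95% Wilson interval 52.7 to 54.6%), referred to below as the distal peaks. They were divided into 2608 peaks inside gene bodies and 2818 intergenic peaks. The remaining SSRP1 peaks, used for comparison, were 2363 narrow SSRP1-only peaks at gene starts, 1027 narrow peaks shared with SUPT16 and 1298 broad peaks of 1000 bp or more.

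FACT is a histone chaperone made of SSRP1 and SUPT16. It binds nucleosomes at several surfaces and reorganises them while polymerases pass, and whether it removes H2A-H2B dimers in doing so is debated. It is best known from transcribed genes, where it travels with elongating Pol II. In ES cells, genes of the pluripotency network are controlled by enhancers that can lie far from the promoter, inside introns or between genes, and that are bound by factors such as OCT4, SOX2, NANOG, ESRRB and KLF4.

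All cells were of the mESC line E14, grown on gelatin with serum and leukaemia inhibitory factor (LIF). For the peaks, untreated cells were fixed in formaldehyde (1%, 20 min), and antibodies to SSRP1 or to SUPT16 were used for the immunoprecipitation. The 2 biological replicates of each subunit entered peak calling together, which gave 1 list per subunit without heights. For RNA, cells were transfected with scramble control vectors or with a combination of shRNA vectors against Ssrp1 (KD), and 48 h later selected with puromycin (2 µg/ml) for 24 h. There were 4 control and 4 KD libraries, all with spike-in RNA added. Chromatin-associated RNA came from 2 libraries of untreated cells.

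Over the whole series, the control libraries held 4602278 to 6680919 reads on 15384 genes and the KD libraries 9433193 to 19856032. The chromatin libraries held 3441643 and 3393923 counts. Ssrp1 RNA, the target of the shRNAs, lay at 223 to 261 in control and 24.1 to 28.9 in KD (values scaled to library size). Its log2 fold change was -3.15 (SE 0.07, limma, Benjamini-Hochberg adjusted p = 1.18e-22). Of the markers of ES cells, 5 of 5 had values and summed to 883 to 956 in control and 2002 to 2061 in KD. The sums over the 4 neural progenitor markers were 75.7 to 98.96 and 141 to 152. Of these, Tubb3 had means of 33.6 in control and 108 in KD, while those of Pax6 (7.89 and 2.48), Nes (42.8 and 33.2) and Sox1 (4.20 and 1.85) were lower in KD. The sums over 3 of 4 trophectoderm markers 917 to 1252 and 720 to 768 (Elf5 had no value), and the sums over the 3 primitive endoderm markers 30.8 to 47.0 and 9.52 to 12.7. The part of these shifts in the results below was not tested, and in such bulk samples fewer cells of a type and less RNA per cell cannot be told apart.

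Sequences of 7 distal peaks are given first, because they lie at genes of the pluripotency network and on elements that the RefSeq annotation of GRCm38 (mm10) records as regulatory. Each is printed on the plus strand, whole or, where longer than 300 bp, as its central 300 bp. Capitals mark matches to any of the 13 motifs described further on.
The peak near Pou5f1, the gene of OCT4, covered part of its distal enhancer and lay at chr17:35503833-35504616, with chr17:35504075-35504374 printed.
Pou5f1 locus: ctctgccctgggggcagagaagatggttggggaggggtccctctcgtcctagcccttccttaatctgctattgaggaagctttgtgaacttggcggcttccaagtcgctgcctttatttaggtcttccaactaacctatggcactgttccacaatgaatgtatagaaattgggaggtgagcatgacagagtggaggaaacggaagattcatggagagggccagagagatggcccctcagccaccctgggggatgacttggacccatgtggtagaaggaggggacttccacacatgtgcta
The peak in the Sox2 control region, an enhancer 108 kb downstream of Sox2, lay at chr3:34757465-34757758.
Sox2 locus: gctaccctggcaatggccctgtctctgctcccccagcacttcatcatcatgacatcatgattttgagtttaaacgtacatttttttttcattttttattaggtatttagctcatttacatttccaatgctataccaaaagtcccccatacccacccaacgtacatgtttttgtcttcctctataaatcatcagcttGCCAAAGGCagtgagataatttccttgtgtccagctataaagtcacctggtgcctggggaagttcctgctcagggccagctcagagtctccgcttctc
The peak upstream of Nanog lay on an annotated enhancer fragment and hypersensitive site at chr6:122702665-122702958.
Nanog locus: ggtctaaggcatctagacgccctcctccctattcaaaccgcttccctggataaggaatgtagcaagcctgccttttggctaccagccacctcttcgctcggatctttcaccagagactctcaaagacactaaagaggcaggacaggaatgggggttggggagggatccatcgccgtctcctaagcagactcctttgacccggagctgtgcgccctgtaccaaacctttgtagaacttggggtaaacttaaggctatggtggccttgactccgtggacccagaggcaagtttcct
The peak inside the Esrrb gene body lay at chr12:86498329-86499210, with chr12:86498620-86498919 printed.
Esrrb locus: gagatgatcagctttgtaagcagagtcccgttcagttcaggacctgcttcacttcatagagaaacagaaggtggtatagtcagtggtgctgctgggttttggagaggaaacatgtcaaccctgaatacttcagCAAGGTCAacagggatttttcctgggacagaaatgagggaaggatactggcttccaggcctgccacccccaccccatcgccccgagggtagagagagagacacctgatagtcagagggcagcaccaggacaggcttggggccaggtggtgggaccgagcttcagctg
The peak upstream of Dppa5a, a gene marking pluripotent cells, lay at chr9:78369523-78370306, with chr9:78369765-78370064 printed.
Dppa5a locus: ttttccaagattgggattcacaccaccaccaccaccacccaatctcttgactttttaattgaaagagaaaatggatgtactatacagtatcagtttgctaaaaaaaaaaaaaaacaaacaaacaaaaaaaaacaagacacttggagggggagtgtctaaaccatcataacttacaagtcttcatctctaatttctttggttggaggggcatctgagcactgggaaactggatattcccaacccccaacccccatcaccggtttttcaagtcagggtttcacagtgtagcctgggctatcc
The peak upstream of Tdgf1, a co-receptor of Nodal, lay at chr9:110947565-110947956, with chr9:110947611-110947910 printed.
Tdgf1 locus: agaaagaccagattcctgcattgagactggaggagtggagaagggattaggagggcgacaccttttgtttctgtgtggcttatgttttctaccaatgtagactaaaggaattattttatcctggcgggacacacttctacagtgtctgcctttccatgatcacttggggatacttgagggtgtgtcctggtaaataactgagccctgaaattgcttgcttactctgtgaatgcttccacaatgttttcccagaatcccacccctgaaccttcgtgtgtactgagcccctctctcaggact
The peak upstream of Tet1, an enzyme that oxidises 5-methylcytosine, lay at chr10:62895323-62896302, with chr10:62895663-62895962 printed.
Tet1 locus: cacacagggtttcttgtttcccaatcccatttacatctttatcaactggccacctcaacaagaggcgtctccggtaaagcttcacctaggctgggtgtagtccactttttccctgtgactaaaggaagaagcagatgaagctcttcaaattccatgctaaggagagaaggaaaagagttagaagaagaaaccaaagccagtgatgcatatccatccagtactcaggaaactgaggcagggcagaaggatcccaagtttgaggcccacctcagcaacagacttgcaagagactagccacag
Of these sequences, that at Esrrb held 1 match to the word of its own product, CAAGGTCA, and that at Sox2 held 1 match to the AP-2 word. The other 5 held no match. Where only the central 300 bp are printed, this count leaves out the rest of the peak. The annotated elements that the whole Pou5f1 peak overlaps include a site described as containing an Oct/Sox box and one named Esrrb-P2.

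A further 5 distal peaks are shown as examples of the motifs. The first 4 are peaks of 294 bp without masked repeats, off exons, whose single match to the named motif lay nearest to the peak centre. The last had the most ESRRB words of the peaks of 294 bp considered.
The CTCF example lay in an intron of Sh3tc1 at chr5:35701107-35701400.
CTCF example: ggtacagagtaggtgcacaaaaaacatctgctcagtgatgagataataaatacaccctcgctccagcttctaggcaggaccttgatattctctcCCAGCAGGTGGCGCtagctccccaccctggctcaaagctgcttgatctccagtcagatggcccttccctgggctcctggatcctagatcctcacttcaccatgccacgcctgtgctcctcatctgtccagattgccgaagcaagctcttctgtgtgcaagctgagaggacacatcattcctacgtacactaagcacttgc
The ESRRB example was intergenic, with Gpr133 as its assigned gene, at chr5:129217509-129217802, and a GC box stood beside the ESRRB word.
Esrr example: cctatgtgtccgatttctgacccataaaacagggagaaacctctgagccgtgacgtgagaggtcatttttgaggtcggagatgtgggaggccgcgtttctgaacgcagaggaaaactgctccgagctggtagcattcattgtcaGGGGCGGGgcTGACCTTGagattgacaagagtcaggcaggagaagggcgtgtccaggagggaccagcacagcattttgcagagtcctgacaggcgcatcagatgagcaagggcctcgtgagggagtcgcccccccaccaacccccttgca
The KLF example lay in an intron of Clic4 at chr4:135253623-135253916, on an enhancer annotated from the VISTA collection.
Klf example: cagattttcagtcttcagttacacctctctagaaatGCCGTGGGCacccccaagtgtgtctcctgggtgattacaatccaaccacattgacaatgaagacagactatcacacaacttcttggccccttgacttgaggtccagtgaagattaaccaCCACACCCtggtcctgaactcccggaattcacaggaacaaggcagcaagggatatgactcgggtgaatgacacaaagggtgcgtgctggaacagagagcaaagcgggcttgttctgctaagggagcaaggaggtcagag
The GC box example was intergenic at chr13:65930285-65930578, with Gm10324 as its assigned gene.
GC box example: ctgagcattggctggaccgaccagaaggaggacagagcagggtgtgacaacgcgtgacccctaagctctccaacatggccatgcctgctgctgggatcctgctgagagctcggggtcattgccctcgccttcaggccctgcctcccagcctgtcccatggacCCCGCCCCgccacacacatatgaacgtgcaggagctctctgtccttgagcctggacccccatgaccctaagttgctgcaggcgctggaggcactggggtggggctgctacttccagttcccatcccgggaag
The array of ESRRB words was intergenic at chr1:51481655-51481948, with Nabp1 as its assigned gene, and repeated the word 7 times.
Esrr array: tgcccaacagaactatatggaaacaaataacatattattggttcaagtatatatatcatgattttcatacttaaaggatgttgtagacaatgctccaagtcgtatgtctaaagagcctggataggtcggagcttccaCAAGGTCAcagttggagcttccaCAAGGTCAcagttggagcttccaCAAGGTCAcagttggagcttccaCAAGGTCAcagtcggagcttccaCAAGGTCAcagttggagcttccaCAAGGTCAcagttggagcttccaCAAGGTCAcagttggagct
Such arrays were few. Of the distal peaks with the ESRRB word in the central 294 bp, 167 held it once and 10 held it more often.

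The distal peaks were short. The shortest length that the caller gave, 294 bp, was that of 3253 peaks (60.0%), and 585 peaks measured 392 bp. At the length limit, 73 peaks of 980 bp were just inside and 83 peaks of 1078 bp just outside. At the distance limit, 37 peaks lay 1001 to 1100 bp from a start and 56 SSRP1-only narrow peaks lay 901 to 1000 bp away. A further 363 narrow peaks away from starts were left out because they overlapped a SUPT16 peak.

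Most of the distal peaks were not just beyond a promoter. The median distance to the nearest gene start was 16.6 kb (12.7 kb in gene bodies and 21.7 kb between genes), and the largest was 2078 kb. Within 5000 bp of a start lay 19.6% of the peaks, and within 50000 bp 79.0%. Other annotations placed transcript starts nearer: 10.6% of the peaks lay within 1000 bp of a transcript start of RefSeq and 16.4% of one of GENCODE. Called SUPT16 peaks were also distant, with a median gap of 79.7 kb to the nearest one. Of the distal peaks, 1.36% lay within 500 bp of a SUPT16 peak and 11.6% within 5000 bp. For comparison, 12.2% of the SSRP1-only peaks at gene starts had a SUPT16 peak within 5000 bp. The median gap of those peaks at gene starts was 78568 bp. The SUPT16 list was shorter, with 3855 peaks against 10114 for SSRP1. The paper reports that both subunits bind in a much alike pattern over gene starts. Whether SUPT16 was present at the distal peaks below the limit of peak calling was not tested.

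Gene bodies held 48.1% of the distal peaks (interval 46.7 to 49.4%) and covered 36.7% of the genome. Of the 2608 gene-body peaks, 823 touched an exon (31.6%, interval 29.8 to 33.4%) and 1785 lay in introns. The first intron held 598 of the intronic peaks (33.5%, interval 31.3 to 35.7%), against 24.8% of the intron length of the same genes. Along gene bodies cut into 5 equal parts from start to end, the shares were 18.1%, 18.9%, 18.3%, 19.1% and 25.2%, so the part next to the gene end held the most. The rule itself removed peaks from the beginning of the first part. Between genes, the nearest gene edge was a start for 48.3% of the peaks (interval 46.5 to 50.2%) and an end for the others, 44.5% of the peaks lay within 10 kb of a gene, and 10.97% more than 100 kb from any. No test was run on these shares: there is 1 peak list per subunit, peaks are not replicates, and the intervals cover counting error only.

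The distal peaks were spread unevenly over the chromosomes. Chromosome 8, with 4.75% of the genome length and 4.77% of the gene starts, held 613 of them (11.3%, interval 10.5 to 12.2%), or 4.74 per Mb. The same chromosome held 6.60% of the SSRP1-only peaks at gene starts, 10.0% of those shared with SUPT16, 21.5% of the broad SSRP1 peaks and 10.97% of the SUPT16 peaks, so its excess was not particular to distal peaks. Chromosome 4 followed with 9.29% of the distal peaks on 5.74% of the length. The X chromosome, with 6.28% of the length, held 63 peaks (1.16%). It held 0.169% of the SSRP1-only peaks at gene starts, 1.27% of those shared with SUPT16, 0.539% of the broad and 0.700% of the SUPT16 peaks. Its low share was therefore not particular to distal peaks either.

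**Figure D1:**
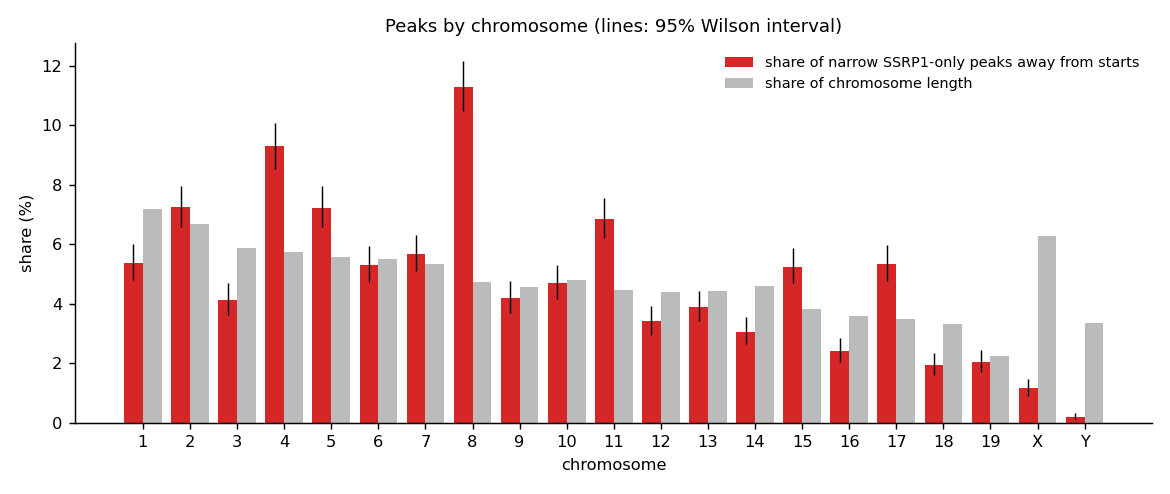
Share of the distal peaks on each chromosome (red, in percent, with 95% Wilson intervals) beside its share of the genome length (grey). Chromosome 8 stands at 11.3% against 4.75% of the length, and chromosome X at 1.16% against 6.28%.

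Within chromosomes the distal peaks gathered at some loci. Joined over gaps of up to 5000 bp, 1293 peaks (23.8%, interval 22.7 to 25.0%) fell into 538 groups of 2 or more, and 50 groups held 4 or more. The group with the most peaks, 10 over 23.9 kb, lay near Atg7, an enzyme of autophagy, at chr6:114612863-114636774. In the median 73.1% of the sequence of its peaks was masked as repeat. It also lay in the stretch of a local family of near-copies described below, where the placement of reads is uncertain. The next group held 8 peaks over 19.4 kb inside Esrrb at chr12:86485883-86505286, with a median of 24.3% masked. Groups of 7 lay near Tgif1, a repressor of TGF-beta signalling, and near Hnrnpab and Agxt2l2, and groups of 5 near Tet1 and near Sall1, a zinc finger gene of ES cells. On the scale of 1 Mb, 24 windows held 20 or more peaks each and 681 in all (12.6%). The window with the most, 50 peaks at chr4:147000001-148000000, lies in a cluster of zinc finger genes and predicted genes such as Gm13152 and Rex2.

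RefSeq records regulatory elements from published experiments, and some of those noted in ES cells carried distal peaks. By their central 294 bp, 59 distal peaks (1.09%, interval 0.844 to 1.40%) lay on any such element, against 0.0902% of 880702 tiled windows of the genome of the same length and also more than 1000 bp from gene starts. On elements noted in ES cells lay 29 of them (0.534%, interval 0.372 to 0.767%), against 0.00715% of the windows. The share was 0.169% (interval 0.0658 to 0.434%) for peaks at gene starts, 0.0974% (interval 0.0172 to 0.549%) for peaks shared with SUPT16 and 0.693% (interval 0.365 to 1.31%) for broad peaks. The interval of the distal peaks overlapped those of the other 3 classes. Recorded elements tend to lie at genes that were studied for other reasons. Of the 48 loci noted in ES cells, 12 carried a distal peak, 25 any SSRP1 peak and 4 a SUPT16 peak. Enhancers of the VISTA collection, assayed in embryos, carried a distal peak at 22 of 616 loci (3.57%).

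The ES cell elements concerned were those of well known stem cell genes. Besides the 7 loci printed above, distal peaks lay on the regions that control Sall1 (5 peaks), the Mir290 cluster of ES cell microRNAs (3 peaks), Med13l, a subunit of the Mediator kinase module (3 peaks), and Mcl1, an inhibitor of apoptosis (2 peaks). At Esrrb and at Tet1, 4 peaks each lay on the annotated element. At Pou5f1, 2 distal peaks covered parts of the distal enhancer, at chr17:35502265-35502754 and at the printed position, and no SSRP1 peak of any class was assigned to the gene besides these.

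**Figure D2:**
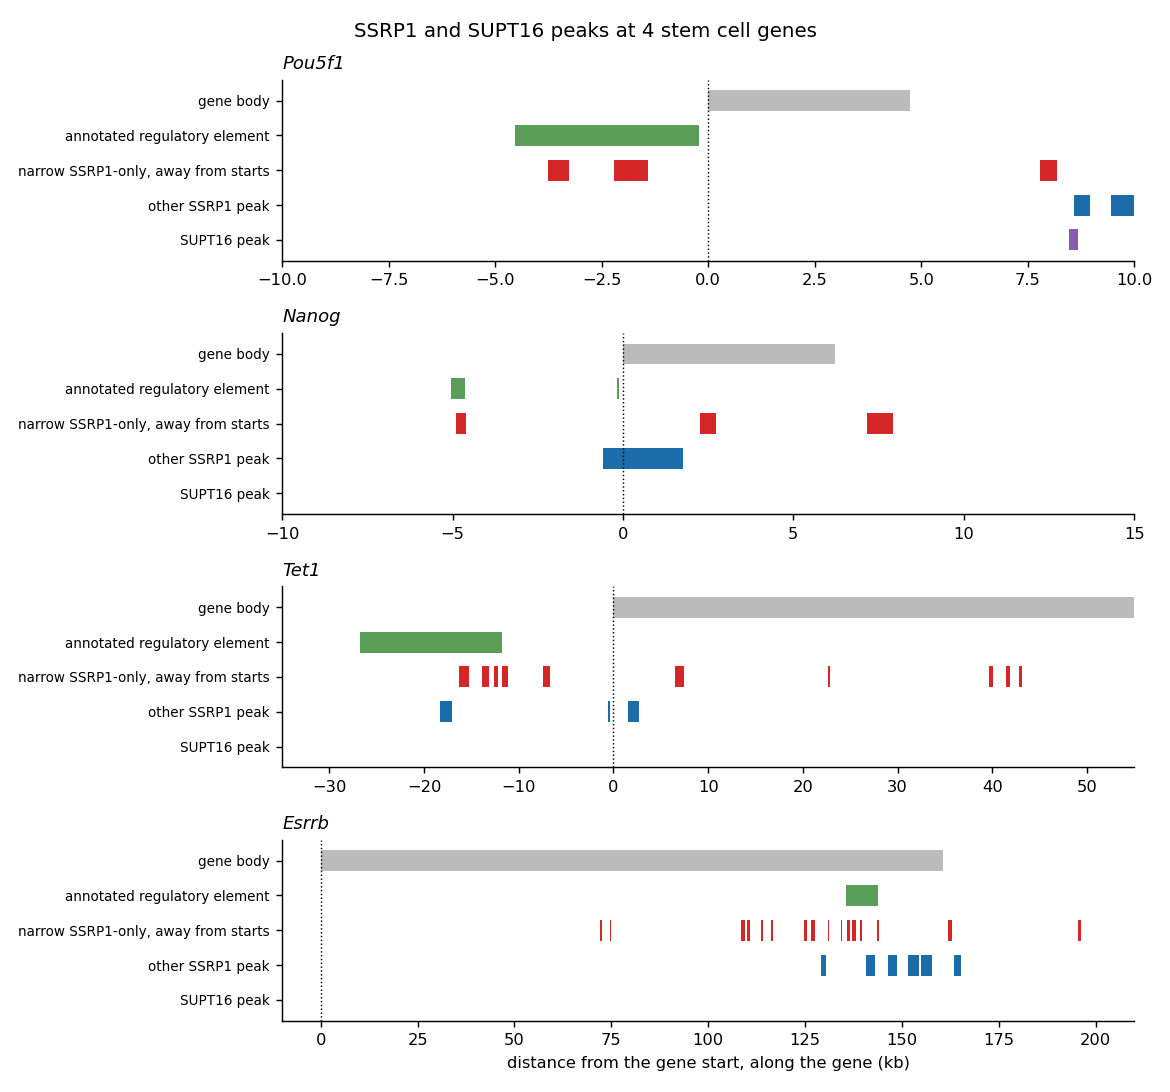
Positions of the distal peaks (red), other SSRP1 peaks (blue), SUPT16 peaks (purple), annotated regulatory elements (green) and gene bodies (grey) at Pou5f1, Nanog, Tet1 and Esrrb, against the distance from the gene start in kb along the gene. The windows hold 3 distal peaks at Pou5f1 and at Nanog, 10 at Tet1 and 16 at Esrrb, and a SUPT16 peak only in the Pou5f1 window, 8.47 to 8.68 kb beyond the start.

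Of 32 genes of pluripotency and self-renewal, 23 (71.9%) had at least 1 distal peak in the gene body or by the authors' nearest-gene assignment, 79 peaks in all. The share was 16 of 28 for signalling genes of stem cells, 9 of 25 for lineage genes and 10 of 26 for chromatin and transcription factors, beside 13.6% of all 26356 genes with a symbol. The lists were chosen with results of these data known, so these counts are descriptions. Genes lying alone in large gaps are assigned peaks from farther away. Esrrb, an orphan nuclear receptor, led with 16 peaks, 72.3 to 196 kb from its start, of which 14 were in the gene body, together with 6 broad SSRP1 peaks. Tet1 had 10, and Tfcp2l1, a transcription factor of naive pluripotency, Trim71, an RNA-binding ubiquitin ligase, Smad7, an inhibitor of TGF-beta signalling, and Hes1, a repressor downstream of Notch, had 5 each. Klf2, Klf4 and Jarid2, a partner of Polycomb repressive complex 2, had 4 each, and Nanog, Tdgf1 and Spry4, an inhibitor of receptor tyrosine kinase signalling, had 3 each. Sox2 itself was assigned none, and the peak in its control region was assigned to Gm3143, a neighbouring gene.

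The sequence of the distal peaks was richer in G and C than their surroundings but unlike that of CpG islands. Their median GC content was 51.3% (interval 51.0 to 51.4%), against 41.5% in the tiled windows, 62.9% in peaks at gene starts, 63.9% in peaks shared with SUPT16 and 55.5% in broad peaks. In steps of 100 bp, the mean GC content was 52.6% next to the centre and 46.8% near 950 bp on either side. The ratio of observed to expected CpG had a median of 0.273 (interval 0.267 to 0.280), against 0.749 at gene starts and 0.776 in shared peaks. A ratio above 0.6 was found in 11.7% of the distal peaks and in 69.6% of those at gene starts.

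Motif words were counted in the central 294 bp of every distal peak on both strands. The words were ATGCAAAT for the octamer of OCT4, CCATTGTT for SOX2, CAAGGTCA for ESRRB, GGGTGTGG for KLF4, GGGGCGGG for the GC box of SP1 and KLF factors, TTCCNGGAA for STAT3, GCCNNNGGC for TFAP2C (AP-2), CACGTG for MYC, GCGCATGCG for NRF1, ACATTCCA for TEAD4 and TGANTCA for AP-1. Consensus patterns of CTCF and of the OCT4-SOX2 composite were also searched. Words of different motifs rarely shared bases: the pair that did so most was the GC box with the AP-2 word, in 7 peaks. A match is a description of the sequence and not of binding.

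The CTCF pattern was in 0.866% of the distal peaks and in 0.0726% of the windows, a ratio of 11.9. Among sequences of 45 to 55% GC, 0.810% of the distal peaks and 0.126% of the windows held it, a ratio of 6.45. CTCF is the factor that stops cohesin at the borders of chromatin loops. Its pattern was also denser near the centre, with 34.1 matches per Mb in the central 200 bp and 7.74 per Mb at 500 to 1000 bp, a ratio of 4.40. In steps of 100 bp the pattern was densest off the centre, with 46.1 per Mb around 250 bp towards higher coordinates, against 12.9 around -250 bp. It was found in 1.07% of the gene-body peaks (interval 0.744 to 1.55%) and 0.674% of the intergenic ones (interval 0.432 to 1.05%), beside 0.508% of peaks at gene starts (interval 0.291 to 0.886%). These intervals overlap. Broad peaks held it in 0.770% and shared peaks in 0.292% of cases. Within the GC band their shares were 1.17% (interval 0.499 to 2.70%) and 1.09% (interval 0.299 to 3.88%). The interval of distal peaks there, 0.540 to 1.21%, overlapped both, so the CTCF pattern was not particular to distal peaks.

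Of the stem cell factors, the ESRRB word was in 3.26% of the distal peaks against 1.59% of the windows (3.73% and 2.12% in the GC band), and it was 1.66 times as dense at the centre as in the flanks. At gene starts its share was 1.78% (interval 1.32 to 2.39%), below those of 3.18% (interval 2.57 to 3.93%) in gene-body and 3.34% (interval 2.73 to 4.06%) in intergenic distal peaks. Within the GC band the share at gene starts was 2.58% (interval 1.44 to 4.55%), which overlapped the intervals of gene-body (2.67 to 4.67%) and intergenic peaks (3.04 to 5.00%), so the intervals were apart only without the GC match. The KLF4 word was in 3.76% against 1.70% (4.30% and 2.97% in the GC band). Of peaks at gene starts 3.81% held it, but 1.87% within the band (interval 0.952 to 3.65%), against an interval of 3.61 to 5.11% for the distal peaks there, so these intervals just overlap. Broad peaks held the KLF4 word in 5.08% of cases (4.20% in the band), more often than distal peaks over all GC contents. In shared peaks its share was 3.02% (2.17% in the band). The words of OCT4 and SOX2 showed no excess over the windows. The octamer was in 1.23% of the distal peaks and 2.60% of the windows (1.34% and 1.43% in the GC band). The SOX2 word was in 0.977% and 1.66% (0.986% and 1.61% in the band). The composite was in 1 distal peak, that is 0.0184% against 0.0607% of the windows (0.0352% and 0.0291% in the band). Over the whole length of the 79 peaks at pluripotency genes, the octamer was found in 2, the SOX2 word in 0, the ESRRB word in 3 and the AP-1 word in 17 (21.5%). Over the whole length of all distal peaks, the octamer was in 1.55%, the SOX2 word in 1.42%, the ESRRB word in 4.53% and the AP-1 word in 10.2%. The 79 peaks were longer on average than all distal peaks, and these counts were not matched for length. The motifs here are exact words, so sites that deviate from them are not counted.

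The GC box was less frequent in distal peaks than at gene starts, but the intervals overlapped among sequences of like GC content. It was in 4.83% of the gene-body peaks (interval 4.07 to 5.72%) and 3.16% of the intergenic ones (interval 2.57 to 3.87%), but in 18.8% of those at gene starts and 19.0% of those shared with SUPT16, with 0.597% in the windows. Within the GC band the shares were 2.43% of all distal peaks (interval 1.92 to 3.06%), 3.75% of those at gene starts (interval 2.32 to 6.00%) and 2.72% of shared peaks (interval 1.17 to 6.20%), and these intervals overlap. The ratio of all distal peaks to windows in the band was 2.13. The AP-2 word was in 13.2% of the distal peaks against 3.65% of the windows, though in 8.31% against 6.41% within the band. The AP-1 word, at 7.50% against 8.71%, and the TEAD4 word, at 0.958% against 1.42%, were not more frequent than in the windows.

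**Figure D3:**
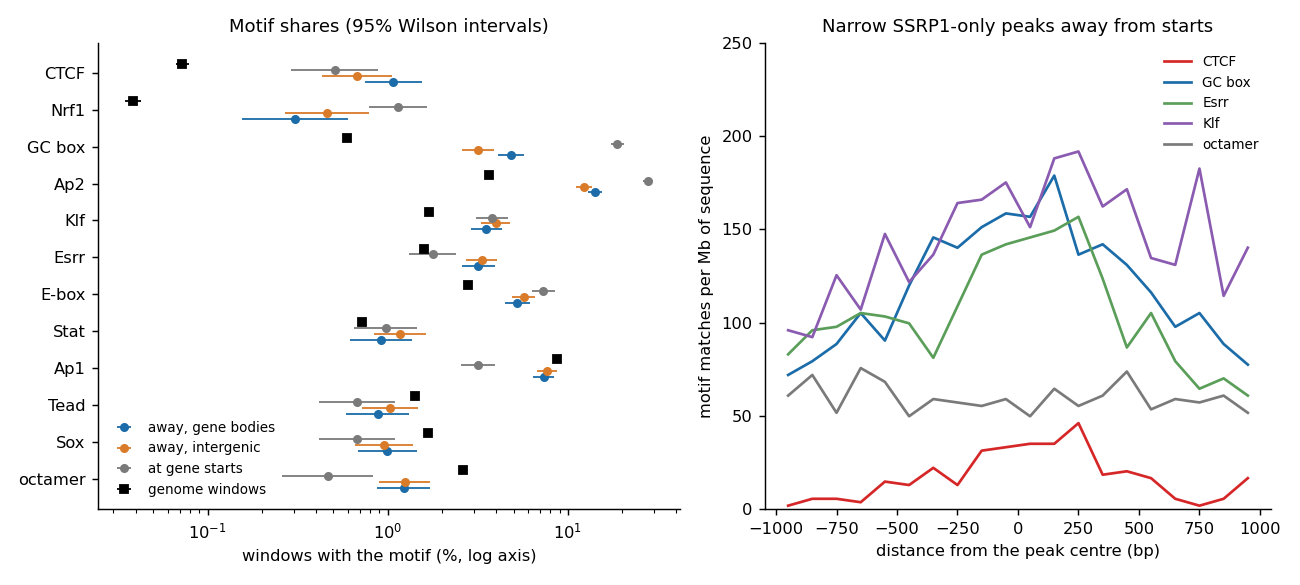
Left, percent of 294-bp windows with each motif (log axis, 95% Wilson intervals) for distal peaks in gene bodies (blue) and between genes (orange), peaks at gene starts (grey) and tiled genome windows (black squares). Right, motif matches per Mb in steps of 100 bp around the centre of the distal peaks. CTCF stands at 34.1 per Mb in the central 200 bp and is highest in the step around 250 bp towards higher coordinates, at 46.1 per Mb. The octamer stands at 54.4 per Mb in the central 200 bp and 61.0 per Mb at 500 to 1000 bp.

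Between genes, many of the distal peaks lay in repeats. More than 50% of the sequence was masked as repeat in 22.9% of the distal peaks, in 30.7% of the intergenic (interval 29.1 to 32.5%) and 14.4% of the gene-body ones (interval 13.1 to 15.8%), beside 1.82% of peaks at gene starts, 8.37% of shared and 7.16% of broad peaks. The share in the tiled windows was 29.7%. When distal peaks that shared at least 50% of their words of 30 letters were joined, 498 of them (9.18%, interval 8.44 to 9.98%) fell into 48 families of near-copies. Intergenic peaks did so in 13.4% and gene-body peaks in 4.60% of cases. No annotation of repeat classes was used, so the families are given by their sequence.

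The 3 families with the most peaks were alike in build. They held 190, 96 and 53 peaks on 20, 20 and 18 chromosomes, were wholly masked in the median, and had a median GC content of 62.2%, 63.9% and 64.3%. The 1000 bp around each peak centre were compared with themselves over a fixed range of shifts, and the best shift was kept without a threshold. In the first family it was 208 bp for 166 of 190 peaks. It was 212 bp for 91 of 96 in the second and 214 bp for 52 of 53 in the third. At the best shift the median identity was 65.8%, 67.3% and 54.7% in the 3 families, so the tandem copies were imperfect. The most frequent word of each is shown because it lets the family be recognised.
Family 1 word: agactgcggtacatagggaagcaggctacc
Family 2 word: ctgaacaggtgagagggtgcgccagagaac
Family 3 word: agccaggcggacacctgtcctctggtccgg
The word of the first family occurred 5760 times in the genome, and 369 of these copies (6.41%) were in SSRP1 peaks. For the other two the numbers were 164 of 5723 copies (2.87%) and 93 of 2049 (4.54%). Tandem GC-rich units are a known feature of the promoters of young mouse LINE-1 elements. Reads from near-identical copies cannot be placed with certainty, and the sources do not state how such reads were treated at alignment, so which copy carried SSRP1 is uncertain. A further family was local, as its 25 peaks all lay at chr6:114492911-114636774 and were assigned to Hrh1 and Atg7.

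The gene bodies with distal peaks belonged to 1952 genes, called host genes below. They were long, with a median body of 37.3 kb against 12.1 kb over all genes, and 1520 of them held a single distal peak. Of the host genes, 603 (30.9%, interval 28.9 to 33.0%) also had a SSRP1 peak at their own start, against 14.03% of the other genes. Esrrb held the most distal peaks (14), followed by Chd9, a chromodomain helicase, with 12, Cacna1a, the pore subunit of a neuronal calcium channel, and Msi2, an RNA-binding protein of stem cells, with 10 each, and Slc10a7, a membrane transporter, with 9. Chd9, Cacna1a and Slc10a7 lie on chromosome 8.

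Host genes had more chromatin-associated RNA than the median gene. Per length, as RPKM (reads scaled to exon length and library depth) in chromatin-associated RNA, their median was 0.526 and 0.836 in the 2 libraries, against 0.125 and 0.208 over all genes. It was lower in both libraries than for genes whose bodies overlapped other SSRP1 peaks. These were narrow SSRP1-only peaks at gene starts (0.687 and 1.20), shared peaks (0.999 and 1.77) or broad peaks (1.26 and 2.10). Host genes with a SSRP1 peak at their own start had medians of 0.948 and 1.68. Those without one had medians of 0.358 and 0.524, and 9.34% of them had no chromatin RNA reads.

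The KD was then compared with control for the genes that hold distal peaks. Over all 15384 genes, 8.07% were higher and 20.6% lower in KD in limma, where a call needed a change of more than 1 on the log2 scale in either direction and a Benjamini-Hochberg adjusted p under 0.01. Of 1700 host genes with a value, 133 were higher (7.82%, interval 6.64 to 9.20%) and 369 lower (21.7%, interval 19.8 to 23.7%), which is near the background. Their median log2 fold change was -0.09, beside -0.03 over all genes. With values scaled to spike-ins, which raised the median of all genes to 0.95, 794 host genes were higher and 128 lower. These were 46.7% and 7.53% of the host genes, beside 48.1% and 7.03% of all genes. With quantile normalisation 123 were higher (7.24%) and 245 lower (14.4%), beside 9.87% and 10.8% of all genes. There the host genes were less often higher and more often lower than all genes. By the adjusted p alone the split of host genes was 581 and 707 (34.2% and 41.6%, beside 35.4% and 37.3% of all genes). The statements on direction and on nearness to the background therefore hold for values scaled to library size.

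The host genes differed among themselves by whether their start carried SSRP1. Of the 577 with a SSRP1 peak at the start, 11.4% were higher and 11.6% lower. Of the 1123 without one, 5.97% were higher (interval 4.73 to 7.51%) and 26.9% lower (interval 24.4 to 29.6%). The genes with a start peak were also more highly expressed in control (median value 48.7 against 24.7), and the part of expression level in this difference was not tested. Of 1417 genes assigned an intergenic distal peak, 9.53% were higher and 15.1% lower (interval 13.3 to 17.1%), at a median control value of 35.4. These intervals are over genes, which are not replicates, and only the calls of single genes rest on the libraries.

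**Figure D4:**
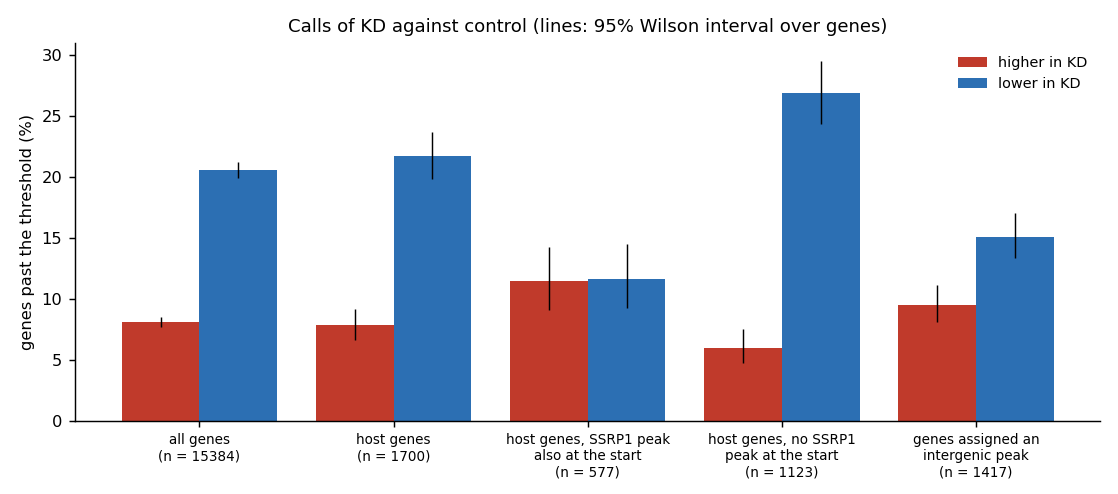
Percent of genes past the threshold in KD against control, higher (red) and lower (blue), with 95% Wilson intervals over genes. Host genes stand at 7.82% and 21.7%, near the 8.07% and 20.6% of all genes, and host genes without a SSRP1 peak at the start at 5.97% and 26.9%.

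Genes of the pluripotency list with a distal peak were higher in KD in 10 of 23 cases and lower in 0, beside 15 higher and 0 lower of the 32 genes of the whole list, in limma at the same threshold. Over all genes these shares were 8.07% and 20.6%. Of the genes with a distal peak in the other lists, 3 of 16 signalling genes were higher and 0 lower, 0 of 7 lineage genes higher and 3 lower, and 1 of 10 chromatin and transcription factors higher and 1 lower. Over these whole lists, 5 of 27 signalling genes were higher and 3 lower. Of 18 lineage genes 1 was higher and 9 lower, and of 26 chromatin and transcription factors 2 were higher and 3 lower. Pou5f1, whose distal enhancer held 2 of the peaks, had values of 272, 312, 283 and 278 in control and 685, 668, 677 and 662 in KD. All KD libraries lay above all control libraries. The log2 fold change was 1.23 (SE 0.06, limma, adjusted p = 6.57e-17). Nanog lay at 126, 131, 131 and 136 in control and at 271, 278, 283 and 258 in KD, again without overlap. Its log2 fold change of 1.05 (limma, adjusted p = 9.57e-16) fell below the threshold to 0.56 with quantile normalisation. Klf2, the naive pluripotency factor, was at 32.6 to 44.6 in control and 82.2 to 98.4 in KD, a log2 fold change of 1.26 (limma, adjusted p = 1.28e-13).

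Most of the genes with the most distal peaks stayed under the threshold with values scaled to library size, and 9 of them passed it with spike-in scaling. Esrrb, with the most, had values of 97.6, 101, 94.7 and 103 in control and 173, 177, 174 and 180 in KD. The groups did not overlap, but the log2 fold change of 0.83 (SE 0.05) did not pass the threshold on size, though its adjusted p was 1.81e-13 (limma). Tet1 lay at 227 to 238 in control and 251 to 274 in KD, a log2 fold change of 0.19. Tfcp2l1 lay at 179 to 213 and 259 to 287, one of 0.45. For Tet1, Tfcp2l1 and Jarid2 (0.24) the sign turned with quantile normalisation. Klf4 (0.81), Spry4 (0.54), Smad7 (0.51) and Hes1 (0.41) also stayed under the threshold, as did Trim71 (-0.20), whose control and KD libraries overlapped.
Of the other host genes with the most peaks, Msi2 was at 47.0 to 49.9 in control and 82.0 to 84.8 in KD (0.78 on the log2 scale). Chd9 (-0.18), Cacna1a (-0.39) and Slc10a7 (-0.35) were slightly lower in KD, none passed the threshold, and with spike-in scaling their log2 fold changes were 0.84, 0.63 and 0.66. With that scaling Esrrb (1.85), Klf4 (1.83), Msi2 (1.79), Spry4 (1.55), Smad7 (1.53), Tfcp2l1 (1.48), Hes1 (1.42), Jarid2 (1.27) and Tet1 (1.21) passed the threshold, beside the median of 0.95 over all genes.

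The 5 host genes with the largest rises included an antagonist and a co-receptor of Nodal. Lefty1, an inhibitor of Nodal, had values of 3.95, 6.71, 4.66 and 5.33 in control and 70.7, 64.3, 66.1 and 66.1 in KD. The groups were far apart, with a log2 fold change of 3.59 (SE 0.12, limma, adjusted p = 1.88e-19). Tdgf1 lay at 139 to 165 in control and 720 to 813 in KD (log2 fold change 2.402, SE 0.06, limma, adjusted p = 7.7e-22). Bnip3, a mitochondrial protein of mitophagy, rose by 2.59, Platr10, a non-coding RNA of pluripotent cells, by 2.36, and Rnf125, a ubiquitin ligase, by 2.17 on the log2 scale.

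The 5 host genes with a symbol and the largest falls had 0 to 15 chromatin RNA counts per library. Cacna1c, a calcium channel of heart and neurons, lay at 19.1, 37.7, 38.4 and 24.6 in control and 0.989, 1.52, 0.389 and 0.754 in KD. No KD library came near the control range, and the log2 fold change was -4.43 (SE 0.23, limma, adjusted p = 1.1e-15). The chromatin libraries held 3 and 1 counts of it. Shank1, a scaffold of synapses, fell by 3.77, Pear1, a receptor of platelets and endothelium, fell by 3.64, and Pkhd1, a protein of kidney cilia, fell by 3.62 on the log2 scale. Gm21119, a predicted gene, fell by 6.63 and had 0 chromatin RNA counts in both libraries. It belongs to a region of chromosome 8 with similar predicted genes, so its reads are uncertain. A gene without a symbol in the files (gene ID 100861725), whose body held 2 distal peaks, fell by 6.16 (limma, adjusted p = 3.28e-22), more than Cacna1c. The distal peak in Cacna1c was 1 in a gene body of 604 kb.

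**Figure D5:**
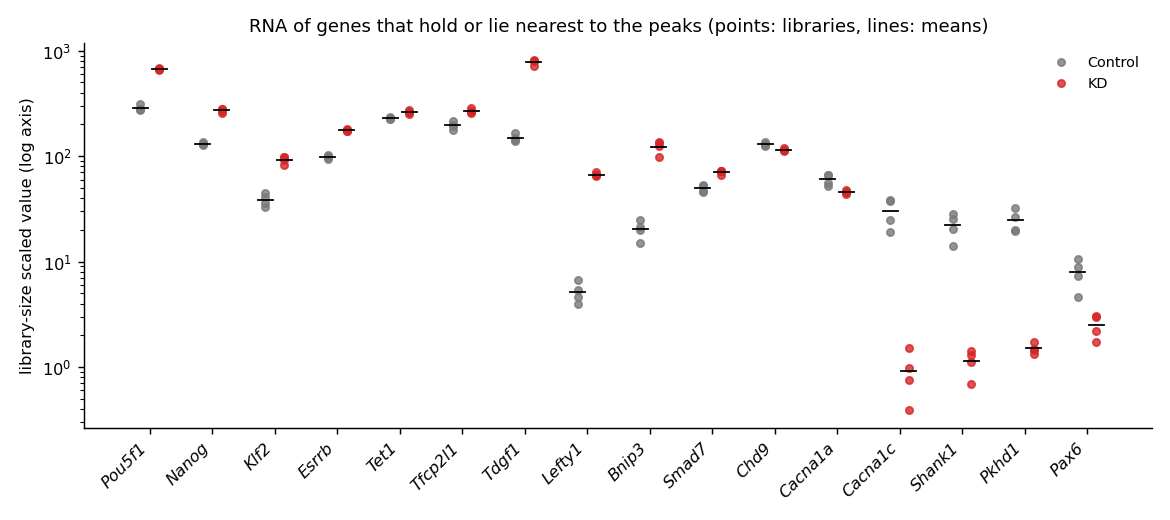
Values scaled to library size (log axis) of genes with distal peaks in the 4 control (grey) and 4 KD (red) libraries, with lines at the means. Pou5f1, Nanog, Esrrb, Tdgf1 and Lefty1 lie higher in all KD libraries, and Cacna1c, Shank1 and Pkhd1 lie lower in all of them.

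The longest distal peaks measured 980 bp, which 38 gene-body and 35 intergenic peaks shared, and the 3 of each kind farthest from a gene start are given. In gene bodies these were 2 in Esrrb (chr12:86487745-86488724 and chr12:86469713-86470692) and 1 in Ppm1h, a phosphatase (chr10:122802135-122803114). Ppm1h lay at 12.7 to 20.3 in control and 3.09 to 4.60 in KD, a log2 fold change of -1.85 (SE 0.17, limma, adjusted p = 1.06e-10), which was -0.89 with spike-in scaling. Between genes, they lay 524 kb from the nearest start, that of Tox3, which had no RNA value (chr8:89823371-89824350), 157 kb from 4930467E23Rik in fully masked sequence (chr8:19908897-19909876), and 111 kb from a start at chr13:66696253-66697232. The RNA of 4930467E23Rik was at 70.4 to 122 in control and 0.124 to 1.68 in KD with 0 chromatin counts, and the same doubt about reads of similar genes applies.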

How the data were processed

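Peaks were made by the authors, who aligned single-end ChIP reads to mm10 with Bowtie2 2.2.6, called peaks with PePr on both replicates together and assigned them to the nearest gene with ChIP-Enrich. The deposited lists hold positions only, so the depth behind a peak is unknown. Each deposited count of chromatin-associated RNA is raw (STAR 2.4.1b and featureCounts, per the labels). The deposited RNA-seq signal per library was scaled by the authors to library size, or to spike-ins, after STAR (2.5.1b per the labels) and featureCounts, and 100% of the library-size values were whole reads within 0.1. Other deposited tables hold the authors' own comparisons (fold changes and p-values) and were not used. MNase-seq, ATAC-seq and NET-seq were not analysed here.

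Gene starts and bodies came from the chromatin RNA table, and sequences, exons, masking and regulatory elements from RefSeq GRCm38. Intergenic peaks lay outside every gene body. Motifs were counted on both strands and compared with every 10th window of 294 bp. The fit was limma 3.58.1 with a trend, run on log2(value + 0.5) of the library-size values, and a call needed a log2 change beyond 1 with a Benjamini-Hochberg adjusted p under 0.01. Fold changes are on that scale and understate the change of low genes. As alternatives, the recovered reads were tested with edgeR 4.0.16 and with DESeq2 1.42.0, and the pseudocount (0.1 or 2), the scaling, the block by replicate and the libraries kept were varied. The search and the tests were checked on simulated data. Libraries of a group differed by more than sampling noise (chi-square per degree of freedom 1.88 to 6.61). The study's methods call the 4 libraries of each condition biological replicates, without saying whether they came from separate transfections, so p-values measure the spread between libraries.

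Members, lists and rules were chosen with earlier results of these data known. Named were the 5 genes with the most peaks in the body, up to 12 list genes with the most peaks, the 5 largest rises and 5 largest falls among host genes with groups that do not overlap, and the genes nearest to the 3 longest peaks of each kind. Pou5f1, a list gene outside these 12, Sox2 and the target Ssrp1 were added after their values were seen. Python 3.11.15 and R 4.3.3 were used.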

Additional observations from a re-analysis of the deposited data

Results flagged for a closer look

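Among 56 groups of 4 libraries (28 named genes in control and in KD), 4 held a library whose gap to the nearest other library took a larger part of the range than Dixon's 95% limit allows. By chance about 1 in 20 groups would do so. Tdgf1 was at 720 in KD replicate 4 and at 800 to 813 in the other KD libraries, still far above every control library. Smad7 was at 65.7 in KD replicate 3 and at 72.5 to 73.0 in the others. Gm21119 was at 2.203 in KD replicate 4 and at 0.124 to 0.352 in the others. The neighbouring 4930467E23Rik was at 1.68 in the same library and at 0.124 to 0.352 in the others.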

How the results depend on the processing

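The calls depended most on the scaling. With spike-in values, 7394 genes were higher and 1082 lower in KD (host genes 794 and 128), against 1242 and 3163 (133 and 369) with library-size values. Quantile normalisation gave 1518 higher and 1656 lower genes (host genes 123 and 245). A filter on a mean value of at least 5 gave 2024 lower genes, and the adjusted p alone gave 5447 higher and 5745 lower (581 and 707). The cause was not tested, except that the filter and the adjusted p alone change the genes or the criterion by construction. Leaving out each library gave 1210 to 1316 higher and 3044 to 3331 lower genes, and 128 to 136 and 358 to 390 host genes. The replicate block left the counts at 1242 and 3163. Libraries with the same number shared only that number, with correlations of -0.06 to 0.02 between their deviations. Among single genes no called value changed sign, and under spike-in scaling Ppm1h and under quantile normalisation Nanog lost their calls. Calls were gained in 22 cases, 9 of them under spike-in scaling (Esrrb, Msi2, Klf4, Tfcp2l1, Tet1, Jarid2, Spry4, Smad7 and Hes1) and 13 by the adjusted p alone.

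For the peaks, gene starts more than 5000 bp away left 45.4% in gene bodies and 75 higher host genes, and peaks with under 50% masked sequence were in gene bodies in 53.4% of cases. The median GC content was 51.0% with peaks under 500 bp and with RefSeq transcript starts added, and the share on chromosome 8 was 10.5% with peaks under 500 bp. All these keep fewer peaks by construction. Peak lists without heights or values per replicate do not allow the strength of any peak to be compared, and a gene without a distal peak may lie below the limit of detection.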
